A study of Homo sapiens and Mus musculus with 69 samples.

Results

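Bulk RNA-Seq compared COR-L88 cells with *STING1* KO after TAS1440 with the same kind of KO cells after the vehicle DMSO. The comparison holds 6 libraries, 3 labelled CORL88_STING_KO_DMSO (numbered 40, 41 and 42) and 3 labelled CORL88_STING_KO_TAS1440 (43, 44 and 45), chosen by their labels from the 60 human and 69 total libraries of the series, and all 20516 genes of the human table were considered. COR-L88 is a human small cell lung cancer (SCLC) line of the neuroendocrine (NE) kind, and TAS1440 is a reversible inhibitor of the lysine demethylase LSD1, given at 100 nM for 28 days. *STING1* was knocked out with a lentiviral CRISPR-Cas9 vector. The study shows single-cell KO clones by immunoblot, but which clone or clones were sequenced is not stated, so the KO and the clone cannot be told apart. Set beside these are 3 libraries of COR-L88 cells without the KO in DMSO (10, 11 and 12) and 3 in TAS1440 (13, 14 and 15), called intact cells here. Filter and model also used 3 libraries labelled CORL88_TAS1440_GSI (16, 17 and 18), intact cells given TAS1440 with a gamma-secretase inhibitor, a drug that blocks the cleavage of Notch receptors, and these are not compared here. Nothing in the labels says that the libraries of a group came from separate cultures, so *P* values measure only the spread between libraries, which may be technical.

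LSD1 removes methyl marks from histone H3 and, in SCLC, represses *NOTCH1* and related genes. Notch signaling suppresses the NE program, partly through REST, a repressor of neuronal genes. STING, the product of *STING1*, is the adaptor by which cytosolic DNA, sensed by cGAS, leads through TBK1 and IRF3 to type I interferon and to NF-kB targets, and SCLC cells of the NE kind usually hold little of it. Interferons raise the genes of MHC class I antigen presentation. The comparison therefore asks what LSD1 inhibition does to these programs in cells edited at *STING1*.

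All values are log2(RPKM + 1) as the authors deposited them, RPKM being reads scaled by transcript length and library size, and a difference of 1 on this scale is a doubling for a gene well above 0 and more than that near 0. Fold changes are differences of group means on the same scale, tested with limma in 1 model over the 15 COR-L88 libraries. Of the 20516 genes, 13134 passed the filter on low values, and a gene is said to have risen or fallen where its adjusted *P* was under 0.05 (Benjamini-Hochberg over these genes) and its log2 fold change at least 1 in size. Read counts are not in the table. Relative library sizes, read from the spacing of low values, were 0.818 to 1.07 in the KO, and 15262 to 15948 genes were above 0 in each. Among the DMSO libraries of the KO, 40 and 42 resembled each other (Pearson *r* over the tested genes 0.993) more than either resembled 41 (0.979 and 0.981). Among the TAS1440 libraries of the KO, 44 was nearer to the intact TAS1440 libraries (mean *r* 0.972) than 43 and 45 were (0.950 and 0.953). These are correlations across genes, which are not independent replicates. For some of the results that rest on library 41 or 44, the count or call without it is also given.

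In the *STING1* KO cells, 2106 of the 13134 tested genes changed with TAS1440 (16.0%), 1346 of them rising (10.2%) and 760 falling (5.79%), and the median over all tested genes was −0.02. The KO groups did not overlap in 6515 genes (49.6%). In the intact cells 2991 genes changed (22.8%), 2011 rising (15.3%) and 980 falling (7.46%), or 1689 rising and 1325 falling with quantile normalization. The direct test of the difference between both responses called 556 genes (4.23%). For 435 of these (3.31%) the response of the KO cells was the lower one and for 121 (0.921%) the higher one, or 332 and 176 with subtracted library medians. Of the 435, 108 passed the filter on low values only through the intact TAS1440 libraries, in which they were high, so these had to differ and their *P* values are not given. Of the 121, 2 passed only through the KO TAS1440 libraries. Calls of the difference varied more with single libraries than those of the response itself, ranging from 335 without library 43 to 911 without library 44.

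The targeted gene was read first. *STING1* (chr5:138855118-138862520 of GRCh37, minus strand) was listed at 0.12, 0.36 and 0.10 in the KO DMSO libraries and at 1.16, 1.09 and 0.96 with TAS1440. In the intact cells it was at 0.24, 0.41 and 0.20 in DMSO and at 2.54, 2.04 and 2.03 with TAS1440. The transcript was therefore detected in the KO cells and was higher in each TAS1440 library than in each DMSO library, by 0.88 (SE 0.14, adjusted *P* = 0.00019), below the fold change asked of a call. The response differed from that of the intact cells by −1.04 (SE 0.198), but the gene passed the filter only through the intact TAS1440 libraries, so this value is a description. A CRISPR edit can leave its transcript in place, so these levels do not check the loss of the protein.

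None of the 11 tested genes of the STING pathway list was called in the KO cells. Over all tested genes 16.0% were called there, so for a list this short the count was near the share of all genes. In the intact cells 5 of the 11 rose, *STING1*, *RIGI*, *IFIH1*, *STIM1* and *SAMHD1*, where 15.3% of all tested genes rose. The direct test called 1 response different, that of *STING1*, which passed the filter only through the intact TAS1440 libraries. No other member had a response called different. The median fold changes were 0.66 in the KO cells and 0.80 in the intact cells. *CGAS*, which encodes the DNA sensor, was at 2.97, 2.48 and 2.82 in DMSO and at 2.39, 2.76 and 2.45 with TAS1440, so the KO groups overlapped. *TBK1*, the kinase downstream of STING, changed by −0.02 and *IRF3*, the factor it activates, by 0.20, and neither was called. Of the RNA sensors, *IFIH1* (MDA5) went from 7.06, 7.34 and 7.10 to 7.92, 8.26 and 7.77 and *RIGI* from 2.03, 2.10 and 2.14 to 2.91, 2.86 and 2.76. Both were higher in every TAS1440 library, by 0.82 (adjusted *P* = 0.00384) and 0.75 (adjusted *P* = 0.00216), again short of the fold change threshold.

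All 3 tested Notch receptors rose. *NOTCH1* (chr9:139388885-139440500 of GRCh37, minus strand) was at 1.06, 0.97 and 0.96 in the KO DMSO libraries and at 4.58, 2.82 and 4.93 with TAS1440. The increase was 3.11 (SE 0.388, adjusted *P* = 2.44e-05), and library 44 lay well below 43 and 45. Intact TAS1440 libraries stood at 1.99, 2.79 and 2.26, all below the KO libraries, but the responses were not called different (1.42, SE 0.549, adjusted *P* = 0.125). *NOTCH2* rose from 2.45, 2.29 and 2.28 to 4.38, 4.40 and 4.60 (2.12, adjusted *P* = 3.26e-06) and *NOTCH3* from 0.53, 1.49 and 0.47 to 2.42, 2.65 and 2.46 (1.68, adjusted *P* = 5.3e-05), each with little spread among the treated libraries. *NOTCH4* stayed under 1 in all 6 libraries and was not tested.

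Among the Notch ligands, 2 of 6 tested members fell and none rose. *DLL3*, an inhibitory ligand, went from 5.61, 5.49 and 5.54 to 3.81, 3.10 and 4.24 (−1.83, adjusted *P* = 2.4e-05), and *DLL4*, an activating ligand, from 6.37, 5.21 and 6.15 to 4.16, 3.11 and 4.72 (−1.92, adjusted *P* = 0.00146). Library 44 was the lowest of the treated libraries for both. In the intact cells *DLL3* went from 4.89, 5.15 and 5.01 to 2.34, 1.94 and 1.77 and *DLL4* changed by −4.03. The differences of 1.17 and 2.11 passed the test (adjusted *P* = 0.0419 and 0.0352) but were lost in 12 and 10 of 18 alternatives. *LFNG*, a glycosyltransferase that tunes receptor and ligand pairing, changed by −0.43 in the KO cells (adjusted *P* = 0.324) and by −2.65 in the intact cells, a difference of 2.22 (adjusted *P* = 0.0147).

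The transcriptional targets of Notch did not move as 1 group. Of 8 tested members 2 rose and 3 fell, and the median was −0.10. *HES1*, a repressor that Notch commonly induces, was at 5.16, 5.51 and 5.13 in DMSO and at 3.26, 2.98 and 3.99 with TAS1440. Every treated library was below every DMSO library and the fall was −1.86 (SE 0.242, adjusted *P* = 3.51e-05). In the intact cells *HES1* changed by −0.12, and the difference of −1.74 (SE 0.342, adjusted *P* = 0.0105) was called in all 18 alternatives. *HES6* (−1.38) and *HEY1* (−1.06) also fell, whereas *HEYL* (1.27) and *HES2* (1.06) rose, the last of these missing the fold change threshold in 5 of 12 alternatives. *HES4* and *NRARP* were not called (0.02 and −0.23).

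Of 21 tested genes of the Notch machinery, which process, modify or transduce the receptors, 2 rose and 2 fell. These counts were near the shares of all tested genes, of which 10.2% rose and 5.79% fell. The coactivator *MAML2* went from 0.76, 0.64 and 0.66 to 1.79, 2.30 and 1.98 (1.34, adjusted *P* = 8.01e-07), while its relative *MAML3* fell (−1.25). In the gamma-secretase complex *NCSTN* rose (1.07, not called without library 41 or 44) and *APH1B* fell (−1.13). *RBPJ*, the DNA-binding factor of the pathway, changed by −0.02. *REST* was at 3.37, 4.20 and 2.89 in DMSO and at 6.11, 6.25 and 6.25 with TAS1440, a rise of 2.72 (SE 0.231, adjusted *P* = 7.58e-07) beside 2.89 in the intact cells. It was the only called gene among the 15 tested members of the LSD1 and REST complexes, and *KDM1A*, which encodes LSD1 itself, changed by −0.41.

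The labelled cell type was checked against its markers. In the KO DMSO libraries *INSM1*, *CHGA*, *SYP*, *NCAM1*, *FOXA2*, *NKX2-1* and *DLL3* were all above 3.9, and *POU2F3* and *YAP1*, which mark other kinds of SCLC, were below 0.8. *NEUROD1*, which marks a kind of NE SCLC, was also present at 6.38, 6.25 and 5.90. Of 13 leukocyte and endothelial markers 11 were in the table and 4 passed the filter, and the summed values of the list were 3.06 to 5.16 in the KO DMSO libraries and 4.01 to 5.35 with TAS1440. *CD8A* rose from 0.83, 1.43 and 0.27 to 2.31, 3.11 and 2.61 (1.83, adjusted *P* = 0.00161), while *CD3D* and *CD3E* were listed at 0 in all 6 KO libraries and *PTPRC* stayed at 0.02 or less.

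Most of the NE program fell. Of 26 tested NE markers 21 fell and 1 rose in the KO cells, with a median of −2.51 (intact cells, −2.90), and 21 fell under every one of 12 alternatives. *SYT4*, a vesicle protein (chr18:40847857-40857500 of GRCh37), had the largest fall of all genes, from 11.11, 10.99 and 10.98 to 1.15, 1.25 and 1.79 (−9.63, SE 0.17, adjusted *P* = 3.72e-13), and the intact cells gave −9.64. The vesicle protein *SYP* went from 5.42, 5.02 and 5.55 to 0.64, 0.57 and 0.47 (−4.77, adjusted *P* = 2.12e-11) and *CHGA*, a granin of secretory granules, from 3.97, 4.05 and 4.41 to 0.55, 0.75 and 0.42 (−3.57, adjusted *P* = 2.51e-09). For these genes the difference between both responses was within its error. The calcium sensor *SCGN* (−5.86), the granin *SCG2* (−4.92) and *STMN2*, which regulates neuronal microtubules (−5.15), fell as well. *PCSK2*, a prohormone convertase, was the exception, rising from 8.56, 8.23 and 8.52 to 9.96, 10.18 and 9.36 (1.40, adjusted *P* = 0.00321).

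Not all NE genes responded alike in both kinds of cells. *INSM1*, an NE transcription factor, fell from 7.23, 7.28 and 7.16 to 4.94, 3.86 and 5.15 (−2.57, SE 0.245, adjusted *P* = 2.19e-06). In the intact cells it went from 6.71, 7.06 and 6.97 to 1.95, 2.16 and 2.26. All KO TAS1440 libraries were above all intact ones, and the response was smaller in the KO cells (difference 2.22, adjusted *P* = 0.00342). The bombesin-like peptide *GRP* fell by 4.34 on the log2 scale in the KO cells and by 6.15 in the intact cells (difference 1.80, adjusted *P* = 0.0129). Of 26 NE markers 3 had a response called higher in the KO cells, where 0.921% of all tested genes did. This count was 1 with only the compared groups, without library 41 or without library 43. For 1 marker, *STMN2*, the response was called lower, a call kept in 4 of 18 alternatives.

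Of 17 tested NE transcription factors and subtype factors 7 fell and 2 rose. *ST18* went from 6.09, 5.59 and 6.31 to 0.45, 0.22 and 0.72 (−5.53), *FOXA2* from 5.46, 5.72 and 5.40 to 2.22, 2.77 and 2.99 (−2.86) and *SOX2* from 7.66, 7.53 and 7.54 to 4.90, 4.95 and 5.13 (−2.59), all with adjusted *P* values of 3.48e-08 or less and none called different from intact cells. The lung factor *NKX2-1* was not called (−0.33). *NEUROD1* was lower in every treated library (4.99, 5.88 and 4.72), by 0.98, just short of the threshold, where the intact cells gave 0.55, and the difference of −1.53 was called (adjusted *P* = 0.0204). The 2 that rose were *POU2F3*, the factor of tuft-like SCLC, from 0.41, 0.75 and 0.44 to 3.10, 2.94 and 3.00 (2.48), and *YAP1*, described below with its targets.

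Of 29 tested synaptic and neuronal genes 23 fell and none rose, with medians of −1.53 in the KO cells and −1.47 in the intact cells. *CACNA1A*, a voltage-gated calcium channel, went from 10.81, 11.01 and 11.08 to 3.03, 1.57 and 4.13 (−8.06, SE 0.437, adjusted *P* = 1.06e-08), the nicotinic receptor subunit *CHRNB2* from 7.50, 7.06 and 7.94 to 2.12, 1.75 and 1.83 (−5.60, adjusted *P* = 4.39e-09), and *UNC13A*, which primes synaptic vesicles, from 6.01, 5.94 and 5.76 to 0.67, 1.38 and 0.57 (−5.03, adjusted *P* = 2.52e-10). No treated library of these genes came near a DMSO library. *SYT1* and *MAP2*, both neuronal, were not called (−0.18 and 0.21).

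REST silences neuronal genes through a long element known as RE1. The promoter of *SYN1*, which encodes a synaptic vesicle protein and carries a well-known element of this kind, is shown for that reason and was chosen after its values were seen. Sequences here are the 250 bases before a transcription start listed by RefSeq for GRCh38.p14, a build other than that of the data, read 5′ to 3′ on the strand of the gene (chrX:47619858-47620107, minus strand), and capitals mark the match.
SYN1: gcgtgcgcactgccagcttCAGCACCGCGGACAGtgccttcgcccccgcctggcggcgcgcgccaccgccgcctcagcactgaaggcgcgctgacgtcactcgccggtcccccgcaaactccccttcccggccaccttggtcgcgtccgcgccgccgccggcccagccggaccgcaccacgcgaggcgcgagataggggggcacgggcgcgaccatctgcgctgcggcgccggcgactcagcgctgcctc
The motif searched, on both strands, was CAGCACC followed after any 2 bases by GGACAG, which 16 of 35116 windows of the same length hold (0.0456%). Of the synaptic and neuronal list, 2 of 38 windows held it, those of *SYN1* and *GRIA2*, and of the NE markers 0 of 34. *SYN1* itself went from 1.92, 2.35 and 2.14 to 0.05, 0.12 and 0.04 (−2.06, adjusted *P* = 1.06e-08). A match is a description of letters and not of binding.

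**Figure D1:**
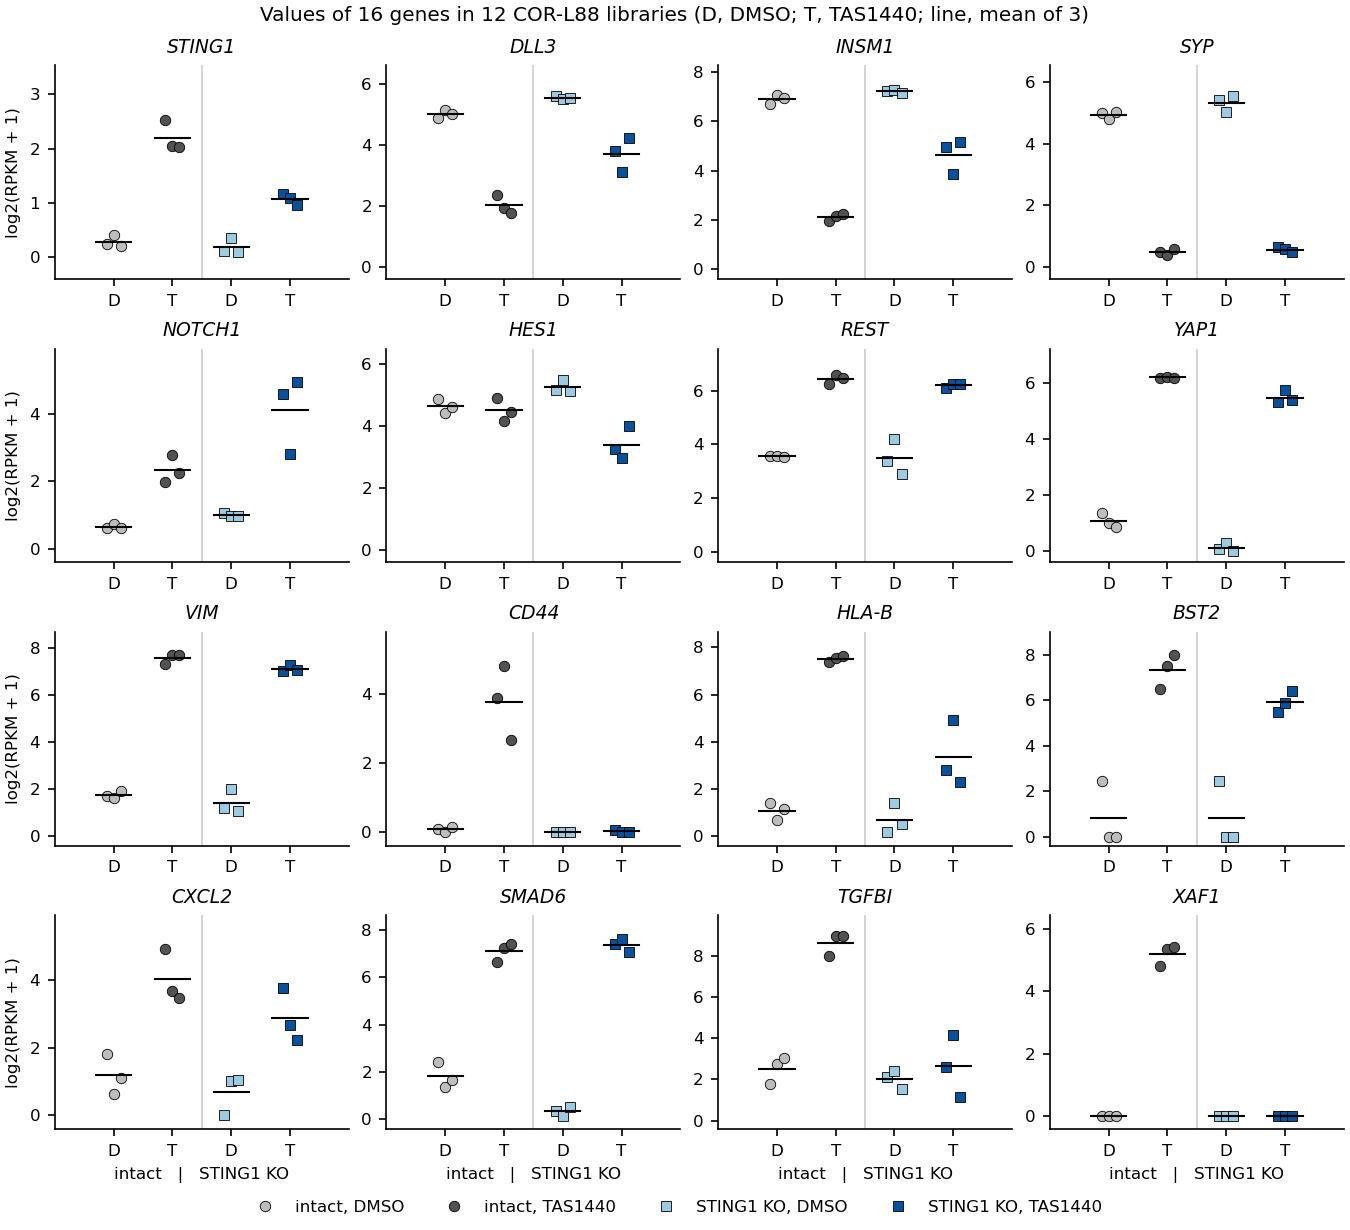
Log2(RPKM + 1) values of 16 genes in 12 libraries of COR-L88 cells, 1 point for each library, ordered by library number within each group of 3, with lines at the group means. DMSO (D) and TAS1440 (T) groups of intact cells are on the left of each panel and those of *STING1* KO cells on the right. *SYP*, *REST*, *YAP1* and *VIM* changed in the same direction on both sides, *INSM1* stayed between 3.86 and 5.15 in the KO cells with TAS1440, and *CD44* and *XAF1* stayed at or near 0 there.

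Genes of the YAP and TEAD list, which respond to cell shape and attachment and are silent in most NE cells, had the highest median of the lists with at least 7 tested members, 2.03 (intact cells, 2.47). Of 15 tested members 12 rose and none fell, and no response was called different from that of the intact cells. The coactivator *YAP1* (chr11:101981178-102104155 of GRCh37) went from 0.06, 0.29 and 0 to 5.32, 5.76 and 5.39 (5.37, SE 0.144, adjusted *P* = 2.12e-11), and its relative *WWTR1* (TAZ) from 0.85, 1.38 and 0.46 to 4.37, 4.76 and 4.85 (3.77, adjusted *P* = 1.26e-08). *ANKRD1* was at 0.05, 0.18 and 0.09 in DMSO and at 5.12, 6.74 and 5.56 with TAS1440 (5.70, adjusted *P* = 2.53e-08), *AMOTL2* at 2.33, 3.17 and 2.20 and then 7.27, 7.54 and 7.17 (4.76, adjusted *P* = 3.8e-09), and *CCN1* at 2.18, 2.32 and 2.17 and then 6.72, 7.07 and 6.38 (4.50, adjusted *P* = 2.02e-08). In DMSO alone *AMOTL2*, *ANKRD1* and *CCN1* were lower in the KO cells than in the intact cells. That comparison called 193 genes (1.47% of those tested), 60 higher in the KO cells (0.457%) and 133 lower (1.01%).

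The promoter of *ANKRD1* (chr10:90921088-90921337, minus strand) is shown because 2 copies of the hexamer bound by TEAD factors, GGAATG, lie in the 250 bases before its start. Capitals mark them.
ANKRD1: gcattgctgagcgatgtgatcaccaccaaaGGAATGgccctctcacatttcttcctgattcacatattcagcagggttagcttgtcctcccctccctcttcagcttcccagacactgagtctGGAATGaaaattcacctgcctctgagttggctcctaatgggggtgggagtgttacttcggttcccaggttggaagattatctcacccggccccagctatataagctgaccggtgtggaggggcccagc
On either strand this hexamer occurs in 4175 of 35116 windows (11.9%). Of the YAP and TEAD list 5 of 21 windows held it (23.8%), those of *YAP1*, *AMOTL2*, *ANKRD1*, *AJUBA* and *CCN2*, all of which rose. Among the 12 tested members with a window 5 held it, and among the 10 that were called 5 did. Members without the hexamer thus rose as well, and a link between the hexamer and the rise was not tested.

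Some mesenchymal genes rose in both kinds of cells and others rose in the intact cells and stayed low in the KO cells. Of 40 tested genes of the epithelial-to-mesenchymal transition (EMT) list 22 rose and none fell in the KO cells, against 35 in the intact cells, and the medians were 1.42 and 3.32. *VIM*, the intermediate filament of mesenchymal cells (chr10:17270240-17279592 of GRCh37), went from 1.21, 2.03 and 1.06 to 7.05, 7.31 and 7.06 (5.70, SE 0.218, adjusted *P* = 5.52e-10), with intact TAS1440 libraries at 7.32, 7.70 and 7.70. The matrix gene *FN1* rose from 3.86, 3.43 and 3.29 to 6.47, 7.63 and 7.03 (3.52) and the basement membrane collagen *COL4A2* from 0.54, 1.07 and 0.51 to 4.59, 5.00 and 4.49 (3.98). *S100A10*, a partner of annexin A2, went from 0, 0 and 0.52 to 7.37, 9.07 and 7.79 (7.91, adjusted *P* = 1.49e-08). Intact cells began higher, at 4.20, 4.00 and 3.72, and ended at 11.43, 10.28 and 10.46. KO minus intact was −3.80 in DMSO (adjusted *P* = 0.000327) and −2.65 with TAS1440 (adjusted *P* = 0.000982). In the KO cells the epithelial adhesion genes *CDH1* and *EPCAM* were 0.57 and 0.39 higher with TAS1440, under the threshold, and the neural cadherin *CDH2* changed by 0.11.

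The response was called lower in the KO cells for 15 of the 40, of which 5 passed the filter only through the intact TAS1440 libraries, *CD44*, *S100A11*, *ANXA1*, *ACTA2* and *ITGA5* (8 were called with a pseudocount of 0.1, which weights low values more). *CD44*, a hyaluronan receptor that marks mesenchymal SCLC, was listed at 0 in all KO DMSO libraries and at 0.06, 0 and 0 with TAS1440, against 3.87, 4.79 and 2.65 in the intact cells with TAS1440. *TGFBI*, a matrix protein named for its induction by TGF-beta (chr5:135364677-135399507 of GRCh37), was at 2.10, 2.41 and 1.53 in KO DMSO libraries and at 2.60, 4.15 and 1.15 with TAS1440 (0.62, SE 0.614, adjusted *P* = 0.449), so these groups overlapped. It rose by 6.09 in the intact cells, to 7.97, 8.93 and 8.95, which made it the largest difference among the genes selected for their difference (−5.48, SE 0.868, adjusted *P* = 0.00367). *S100A11*, *CAV1* and *CAV2* were listed at 0 in every KO DMSO library and stayed at 0.61 or less with TAS1440, where intact TAS1440 libraries held 2.80 to 5.26. With TAS1440 in both, 22 of the 40 were lower in the KO cells than in the intact cells, a comparison that called 858 genes (6.53%), 194 higher (1.48%) and 664 lower (5.06%). *AXL*, a receptor tyrosine kinase of mesenchymal cells, was listed at 0 in all 6 KO libraries and was too low in the line to be tested.

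Cell adhesion genes rose in part. Of 20 tested integrins and laminins 10 rose and none fell in the KO cells, and 17 rose in the intact cells, with medians of 1.25 and 3.02. *ITGA2*, a collagen receptor subunit, went from 0.11, 0.06 and 0 to 3.07, 5.38 and 3.42 (3.90, adjusted *P* = 3.1e-05), *LAMB2* from 2.11, 3.56 and 2.12 to 6.18, 6.44 and 6.40 (3.75) and *ITGB5* from 1.05, 1.62 and 1.09 to 4.13, 4.98 and 4.38 (3.24). The response was called lower in 7 members (3 with a pseudocount of 0.1), and 2 of these, *LAMB3* and *ITGA5*, passed the filter only through the intact TAS1440 libraries. *LAMB3*, a laminin chain of epithelial basement membranes, was listed at 0 in the KO DMSO libraries and at 0.11, 0.70 and 0.13 with TAS1440, against 3.60, 3.58 and 2.93 in the intact cells.

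Antigen presentation rose in part. Of 18 tested genes 9 rose and none fell in the KO cells (14 rose in the intact cells), and the medians were 1.02 and 1.81. *B2M*, the light chain of MHC class I (chr15:45003556-45011049 of GRCh37), went from 4.77, 4.70 and 4.89 to 6.71, 7.31 and 6.27, a rise of 1.98 (SE 0.299, adjusted *P* = 0.000129). *HLA-B* (chr6:31321649-31334844 of GRCh37, minus strand) went from 0.16, 1.41 and 0.50 to 2.80, 4.91 and 2.31 (2.65, SE 0.558, adjusted *P* = 0.00172) and *HLA-E*, a nonclassical heavy chain, from 0.13, 0.53 and 0.14 to 2.81, 3.96 and 2.63 (2.87, SE 0.305, adjusted *P* = 6.03e-06). Reads of HLA genes can be shared among close relatives, so their levels are uncertain. In each of the 3 genes every treated library was above every DMSO library, and library 44 was the highest.

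The intact TAS1440 libraries were higher still, at 7.36, 7.55 and 7.65 for *HLA-B*, 5.83, 5.69 and 5.80 for *HLA-E* and 8.90, 8.31 and 8.99 for *B2M*. Responses were called lower in the KO cells for 8 of 18 members, a count of 3 with a pseudocount of 0.1, 4 without library 43, library 45 or intact DMSO library 11, and 10 without library 44. *TAP1* and *TAP2* passed the filter only through the intact TAS1440 libraries. The difference was −3.79 for *HLA-B* (SE 0.789, adjusted *P* = 0.0137) and −2.20 for *HLA-E* (SE 0.432, adjusted *P* = 0.0105), both lost with the smaller pseudocount. For *B2M* it was −1.65 (SE 0.423, adjusted *P* = 0.0308), lost in 9 of 18 alternatives. *TAP1*, a subunit of the peptide transporter, went from 0.03, 0.09 and 0.09 to 0.88, 1.88 and 0.99 (1.18) against 3.40 in intact cells (difference −2.23), and the immunoproteasome subunit *PSMB9* was listed at 0 in all KO DMSO libraries and at 2.20, 4.56 and 3.01 with TAS1440. *TAPBP*, *TAPBPL* and *ERAP1*, which load and trim peptides, rose by 1.61, 1.28 and 1.09 and were not called different. *NLRC5*, the transactivator of MHC class I, was not called in the KO cells (0.52, adjusted *P* = 0.098). MHC class II was represented by *HLA-DMA* and *HLA-DMB*, which were not called (0.53 and −0.43).

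Of 42 tested genes stimulated by interferon (ISGs) 18 rose and 1 fell in the KO cells, against 32 and 1 in the intact cells, where 10.2% and 15.3% of all tested genes rose. The medians were 0.85 and 1.77. *BST2* (tetherin) was at 2.45, 0 and 0 in DMSO and at 5.47, 5.87 and 6.39 with TAS1440 (5.09, SE 0.714, adjusted *P* = 6.79e-05). *IFI6* rose from 4.23, 5.22 and 4.33 to 6.63, 7.02 and 6.99 (2.29) and the ISG15-conjugating enzyme *UBE2L6* from 2.70, 5.73 and 2.86 to 5.97, 6.18 and 6.20 (2.35), where library 41 stood apart from the other DMSO libraries. The membrane proteins *IFITM2* and *IFITM3*, near copies of each other whose reads may be split, were listed at 0 in DMSO and reached 2.85, 3.69 and 2.31, and 1.81, 2.86 and 1.74. *ISG20*, an exonuclease, fell from 2.75, 2.56 and 2.73 to 1.00, 0.80 and 1.09 (−1.72), as it did in the intact cells (−1.32).

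Responses were called lower in the KO cells for 7 of the 42 ISGs, a count of 2 with a pseudocount of 0.1, 4 without library 43, 11 without intact TAS1440 library 13 and 15 without library 44. Of the 7, *XAF1*, *OAS3*, *RSAD2* and *SAMD9L* passed the filter only through the intact TAS1440 libraries. *XAF1*, a proapoptotic ISG (chr17:6658766-6678966 of GRCh37), was listed at 0 in all 6 KO libraries and at 4.83, 5.37 and 5.44 in the intact cells with TAS1440. The antiviral synthetase *OAS3* was listed at 0 in KO DMSO libraries and at 0.22, 0.97 and 0.64 with TAS1440, against 2.85, 2.87 and 2.63. *GBP1*, a GTPase, went from 0.02, 0 and 0 to 2.09, 2.65 and 1.04 (1.92) against 3.75 (difference −1.83, adjusted *P* = 0.0249). *IFNGR1*, a chain of the interferon-gamma receptor, rose from 2.16, 2.59 and 1.95 to 3.75, 3.90 and 3.46 (1.47), and *SOCS3*, a feedback inhibitor of cytokine signaling, from 1.05, 1.35 and 1.22 to 5.26, 4.15 and 3.50 (3.10). No other of the 10 tested interferon receptors and kinases was called. *CXCL10*, the chemokine that interferon induces, was at 0, 0.21 and 0 in DMSO and at 0, 0.21 and 0.07 with TAS1440 and was too low to be tested.

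Promoters of *BST2* (chr19:17405631-17405880, minus strand) and *B2M* (chr15:44711267-44711516, plus strand) are shown because both genes rose and each window holds the core of the interferon-stimulated response element, GAAA repeated after any 2 bases, in overlapping copies, which the capitals mark.
BST2: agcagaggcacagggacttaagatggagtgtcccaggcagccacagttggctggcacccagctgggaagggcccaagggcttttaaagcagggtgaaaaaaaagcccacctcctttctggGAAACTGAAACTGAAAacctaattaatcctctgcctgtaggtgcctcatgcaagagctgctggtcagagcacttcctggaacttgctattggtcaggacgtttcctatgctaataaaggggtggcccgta
B2M: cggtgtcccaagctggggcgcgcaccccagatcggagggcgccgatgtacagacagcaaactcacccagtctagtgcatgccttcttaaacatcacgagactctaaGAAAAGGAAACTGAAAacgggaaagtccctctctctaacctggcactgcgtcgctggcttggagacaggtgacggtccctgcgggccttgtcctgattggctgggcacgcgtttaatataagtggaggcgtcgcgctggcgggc
This core, on either strand, is in 1061 of 35116 windows (3.02%). It was in 30 of 59 windows of the ISG list (50.8%) and in 8 of 28 of the antigen presentation list (28.6%). Among the 35 tested ISGs with a window 19 held it, and among the 16 that were called 9 did, so the called members held it in nearly the same proportion.

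**Figure D2:**
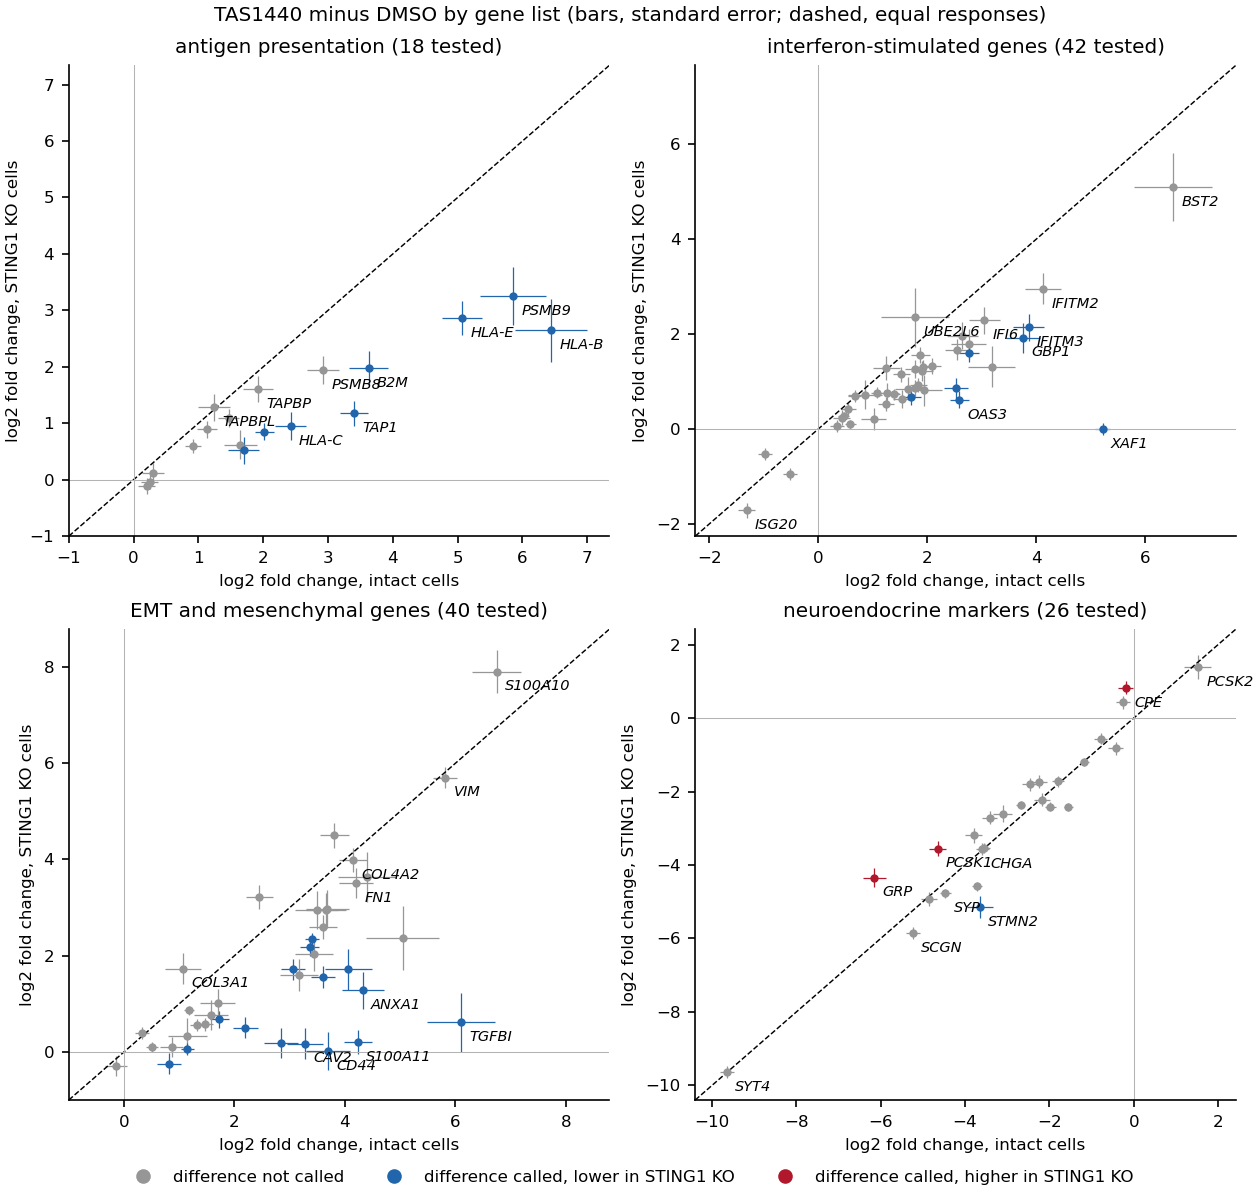
Log2 fold changes of TAS1440 against DMSO in *STING1* KO cells (vertical axis) and in intact cells (horizontal axis), 1 point for each tested gene of 4 lists, with bars of 1 standard error and a dashed line of equal responses. Blue and red points are genes whose difference was called lower or higher in the KO cells. Antigen presentation, ISG and EMT genes lie mostly below the line, with *XAF1* and *CD44* at or near 0 on the vertical axis, while most NE markers lie near it.

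Cytokines and NF-kB targets were mixed. Of 8 tested chemokines and cytokines 5 rose, with medians of 1.54 (KO) and 2.45 (intact). *CSF1*, a macrophage growth factor, went from 0.52, 0.49 and 0.07 to 4.35, 5.24 and 4.21 (4.24, adjusted *P* = 1.49e-08) and *CXCL2*, a neutrophil chemokine, from 0, 1.03 and 1.05 to 3.78, 2.69 and 2.23 (2.21). *IL32*, a proinflammatory cytokine, rose from 0.76, 0.78 and 0.58 to 2.29, 2.69 and 2.07 (1.65, adjusted *P* = 0.0224, not called without library 42 or 44) against 5.55 in intact cells, a difference of −3.90 (adjusted *P* = 0.00963). Of 20 tested NF-kB members and feedback genes 2 rose, the subunit *NFKB1* (1.12, not called without library 41) and *BCL3* (1.65), against 7 in the intact cells. Over all tested genes 10.2% rose in the KO cells and 15.3% in the intact cells, so the KO count was near the share of all genes. The feedback inhibitor *TNFAIP3* (A20) was at 1.94, 1.87 and 1.63 in DMSO and at 1.75, 3.26 and 1.65 with TAS1440, so the groups overlapped and only library 44 was high, while intact TAS1440 libraries held 6.10, 5.20 and 3.41 (difference −3.08, adjusted *P* = 0.0259). The response was called lower in 4 of the 20, but in 2 with only the compared groups or without library 43, library 45 or intact DMSO library 11. Of the 4, *BIRC3* passed the filter only through the intact TAS1440 libraries.

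Library 44 was also the high one among immune checkpoint ligands. *CD274* (PD-L1) was at 0.82, 1.21 and 0.61 in DMSO and at 0.75, 2.18 and 0.78 with TAS1440 (0.35, adjusted *P* = 0.543), against 3.01 in the intact cells (difference −2.66, adjusted *P* = 0.02). *PDCD1LG2* (PD-L2) was listed at 0 in 5 KO libraries and at 2.44 in library 44. Of 12 tested checkpoint and natural killer cell ligands 2 rose, the adhesion molecule *ICAM1* from 0.74, 1.49 and 0.96 to 3.64, 5.16 and 4.34 (3.31, adjusted *P* = 2.17e-06) and the NKG2D ligand *ULBP2* from 0.68, 1.08 and 0.38 to 1.56, 3.10 and 1.68 (1.40, but 0.90 and not called without library 44), against 9 in the intact cells. The KO count was near the share of all tested genes that rose in the KO cells, 10.2%, which was 15.3% in the intact cells. The response was called lower in 5 members, but in 1 without library 43 or 45. The don't-eat-me signal *CD47* was 0.84 higher with TAS1440 in the KO cells, under the threshold, against 2.19 (difference −1.35, adjusted *P* = 0.00126).

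How often library 44 stood at an end of its group was counted over the genes without ties. It was the highest of the KO TAS1440 libraries in 346 of 420 genes (82.4%) whose response was called lower in the KO cells and the lowest in 76 of 117 (65.0%) whose response was called higher, against 38.3% and 30.9% of all tested genes. Its part in the differences was tested only by leaving it out. Library 41 was the highest of the KO DMSO libraries in 59.3% of the genes that rose and 38.0% of all tested genes.

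Of 21 tested TGF-beta family genes 10 rose and none fell in the KO cells, against 10 and 1 in the intact cells (the one that fell was *ID2*, an inhibitor of differentiation), with medians of 0.90 (KO) and 0.85 (intact). *SMAD6*, an inhibitor that BMP signaling induces, went from 0.37, 0.14 and 0.51 to 7.40, 7.60 and 7.05 (7.01, SE 0.272, adjusted *P* = 6.19e-10). Its response was 1.75 larger than in the intact cells (adjusted *P* = 0.0171), which began higher, at 2.44, 1.35 and 1.68, and ended at 6.63, 7.21 and 7.41. The BMP targets *ID1* and *ID3* rose by 3.11 and 3.23 and the ligand *BMP4* by 2.45, from 0.29, 0.40 and 0.08 to 2.33, 2.81 and 2.97. The TGF-beta ligand *TGFB1* rose from 0.85, 1.33 and 0.70 to 3.67, 3.10 and 2.68 (2.19), and its receptor *TGFBR2* from 0.27, 0.09 and 0.25 to 1.63, 2.02 and 1.85 (1.63).

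Of 30 tested cell cycle genes 7 fell and none rose, with medians of −0.81 (KO) and −0.96 (intact), and 15 fell without library 41, which was the lowest DMSO library for both genes that follow. *RRM2*, a subunit of ribonucleotide reductase, was at 6.75, 5.57 and 6.66 and then at 4.93, 5.00 and 5.01 (−1.34, adjusted *P* = 0.00122) and the mitotic kinase *AURKA* at 4.40, 3.63 and 4.22 and then at 2.66, 2.93 and 2.90 (−1.25, adjusted *P* = 4.17e-05). The inhibitor *CDKN1A* (p21) rose from 2.83, 2.86 and 2.61 to 5.65, 5.71 and 4.74 (2.60) and *CDKN2B* (p15) from 1.01, 0.99 and 0.90 to 2.83, 3.98 and 2.65 (2.19), while *CDKN2D* fell (−2.39). In the MYC family *MYC* rose from 1.10, 1.80 and 0.91 to 4.22, 5.11 and 3.45 (2.99, adjusted *P* = 6.68e-06) and *MYCL*, the member typical of NE SCLC, fell from 7.69, 7.57 and 7.55 to 6.30, 5.78 and 7.38 (−1.11, adjusted *P* = 0.0146, not called without library 44) against −2.85. *BCL2*, which protects cells from apoptosis, changed by −0.28 in the KO cells and fell by 1.97 on the log2 scale in the intact cells (difference 1.68, adjusted *P* = 0.0061). Of 25 tested cell death genes 7 rose, among them the BH3-only gene *HRK* from 0.20, 0.70 and 0.11 to 3.62, 3.55 and 2.89 (3.02) and the death receptor *FAS* from 0.07, 0.25 and 0.58 to 1.72, 2.63 and 1.83 (1.76).

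Library 41 also bore on metabolic lists. Of 23 tested genes of cholesterol and fatty acid synthesis 7 fell and 1 rose (12 fell without library 41), for example the desaturase *SCD* from 6.83, 5.86 and 6.54 to 4.48, 4.00 and 5.02 (−1.91) and the sterol sensor *INSIG1* from 7.31, 5.90 and 7.03 to 5.20, 4.47 and 5.38 (−1.73). Of 14 tested genes of the integrated stress response 4 rose (2 without library 40, 42 or 44 and 6 without 41), where 10.2% of all tested genes rose. In the intact cells none of these genes rose and 1 fell. The medians were 0.72 (KO) and −0.17 (intact), and no response of the list was called different. In *NUPR1* library 41 was the high DMSO library, with values of 2.44, 6.07 and 1.67 and then 7.22, 8.04 and 7.71 (4.26, SE 1.15, adjusted *P* = 0.00846), and *VEGFA* had the same order, 2.45, 5.35 and 2.15 and then 6.25, 6.84 and 6.29 (3.14). In DMSO alone *VEGFA* was lower in the KO cells than in the intact cells (−2.73, adjusted *P* = 0.0267). With TAS1440 that difference was −0.35 and not called, and the intact response of *VEGFA* (0.76) was not called either. Among receptor tyrosine kinases *EPHA2* rose from 1.79, 2.88 and 2.31 to 5.69, 7.46 and 6.29 (4.15), whereas *EGFR* stayed low, at 0.03, 0.04 and 0.03 in DMSO and 0.41, 0.56 and 0.27 with TAS1440, against 3.82, 4.09 and 3.57 in the intact cells (difference −2.85, adjusted *P* = 2.87e-06).

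**Figure D3:**
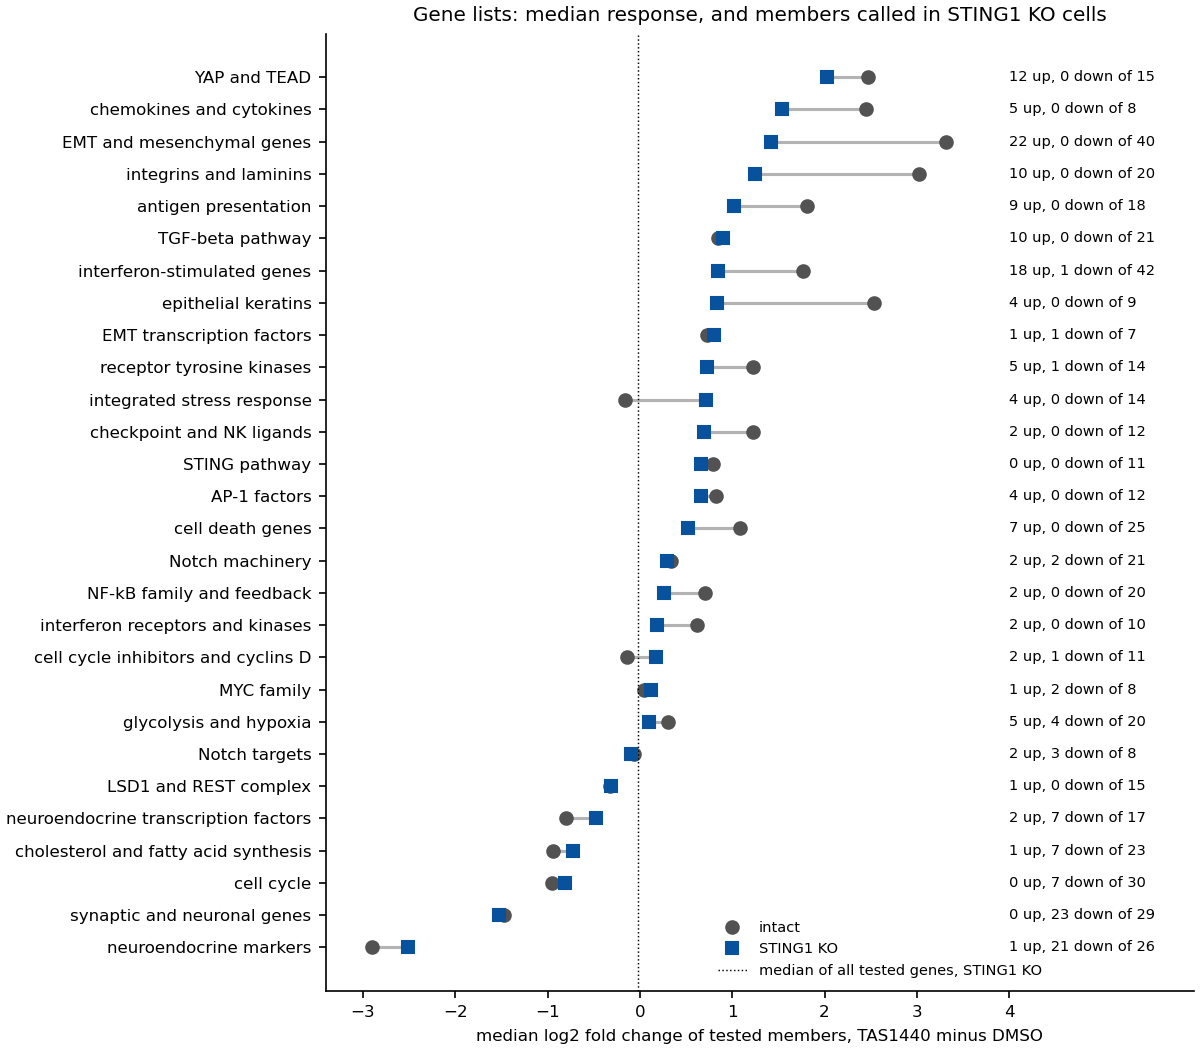
Median log2 fold change (TAS1440 minus DMSO) of the tested members of 28 gene lists in *STING1* KO cells (blue squares) and intact cells (grey circles), with the number of members that rose (up) or fell (down) in the KO cells at the right. The dotted line is the median of all tested genes in the KO cells, −0.02. The YAP and TEAD list is highest in the KO cells and the EMT list in the intact cells, the NE markers are lowest in both, and the widest gaps are in the EMT, integrin and keratin lists.

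Beyond the lists, the 10 called genes with the largest rise and with groups that did not overlap were *NEDD9*, *S100A10*, *CST1*, *SMAD6*, *GPRC5A*, *MGP*, *PIEZO1*, *RXRA*, *CYP4B1* and *THBS1*. The scaffold protein gene *NEDD9*, which acts in integrin signaling, went from 1.77, 0.50 and 0.52 to 8.67, 9.87 and 9.03 (8.26, SE 0.352, adjusted *P* = 1.38e-09). Its response was larger than in the intact cells by 2.83 (adjusted *P* = 0.0061), but the intact cells began at 4.42, 4.97 and 4.20 and ended at 10.24, 9.82 and 9.81. In DMSO the KO cells were 3.60 lower on the log2 scale (adjusted *P* = 8.2e-05), and with TAS1440 the difference of −0.77 was not called (adjusted *P* = 0.123). Several others began lower in the KO cells too. *GPRC5A* was at 0.99, 0.54 and 0.58 against 3.63, 3.56 and 2.96 in intact DMSO libraries and *PIEZO1*, a mechanosensitive channel, at 0.72, 1.28 and 0.47 against 3.17, 3.14 and 3.01. *THBS1*, a matrix glycoprotein, rose from 3.17, 2.60 and 2.64 to 8.42, 9.76 and 8.09 (5.96). The 10 largest falls were those of *SYT4*, *CACNA1A*, *SCGN*, *CHRNB2*, *ST18*, *PEX5L*, *STMN2*, *UNC13A*, *SCG2* and *HABP2*, with fold changes of −9.63 to −4.90.

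Both responses were then set side by side over all genes. The 4 groups share no library, and the fold changes of the KO and intact cells had a Pearson *r* of 0.851 over the tested genes, which are not independent. Of the genes called in the KO cells 1698 were called in the same direction in the intact cells (80.6% of the KO calls and 56.8% of the intact calls), 3 in the opposite direction and 405 in the KO cells alone, a count that is not by itself a test of a difference. Of the 2011 genes that rose in the intact cells 366 had a response called different (18.2%), and in 340 of these the KO response was the smaller one. Of the 980 that fell 68 did (6.94%), 54 of them with the smaller response in the KO cells. The intact responses were used to choose these genes and also enter the tested difference, so the choice itself favors a smaller KO response. These counts are therefore a description, as are the medians of 1.15 (KO) and 1.69 (intact) among those that rose.

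**Figure D4:**
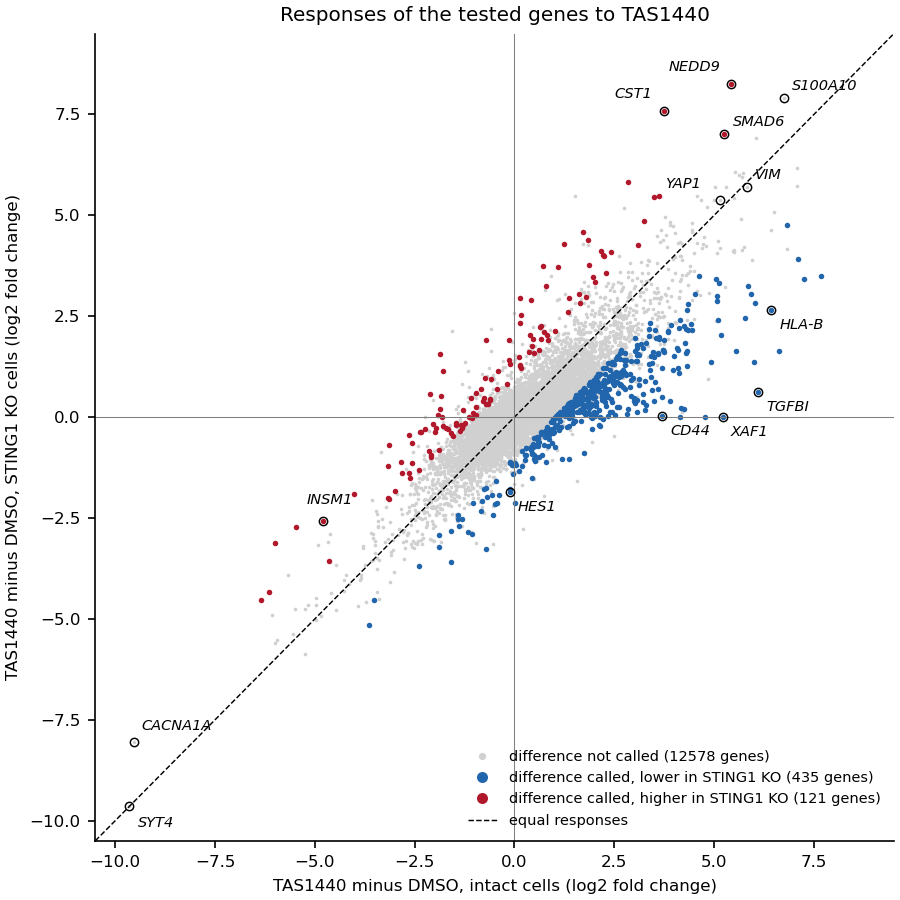
Log2 fold changes of the 13134 tested genes with TAS1440 in *STING1* KO cells (vertical axis) against intact cells (horizontal axis), 1 point for each gene. Blue points are the 435 genes whose response was called lower in the KO cells, red points the 121 called higher, and the dashed line marks equal responses. *SYT4*, *VIM* and *YAP1* lie on the line, *INSM1* above it, and *HLA-B*, *TGFBI* and *XAF1* below it.

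Of the genes with the largest differences, *XAF1* and the gap junction gene *GJA1* were listed at 0 in all 6 KO libraries, the latter against 4.28, 5.68 and 4.33 in the intact cells with TAS1440. *B3GNT3*, a glycosyltransferase, was listed at 0 in KO DMSO libraries and reached 1.42, 1.38 and 1.32 against 6.55, 6.39 and 5.90, and the matrix gene *EMILIN2* was at 3.36, 5.03 and 2.52 against 7.24, 8.54 and 7.90. In the other direction, *CST1*, a cystatin with near copies in its cluster (chr20:23728199-23731905 of GRCh37), was listed at 0 in KO DMSO libraries and at 8.52, 7.28 and 6.98 with TAS1440, against 4.10, 4.35 and 3.77. *LRG1*, a secreted glycoprotein, was listed at 0 and then at 4.63, 3.43 and 4.77 against 2.01, 2.27 and 2.03, and the proteoglycan *SPOCK3* went from 0.30, 0.08 and 0.15 to 4.27, 3.29 and 4.20 (3.74) against 0.72 in the intact cells (difference 3.02, adjusted *P* = 0.000414).

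A few genes told the KO cells apart whatever the treatment. *SLFN13* was listed at 0 in all 6 KO libraries and at 7.32 to 8.32 in the 6 intact libraries, and *KCNAB2* at 0 in all 6 against 4.31 to 5.09 in intact DMSO libraries. *ERCC6L* was listed at 0 in 5 KO libraries and at 0.18 in library 45, where intact DMSO libraries held 3.83 to 4.50. *RPL22*, a ribosomal protein gene that has processed copies, was listed at 0 in the KO DMSO libraries and at 1.22, 1.33 and 0.86 with TAS1440, against 5.78, 5.52 and 5.50 in intact DMSO libraries. These 4 were the only genes at 0 in all KO DMSO libraries and at 3 or more in all intact DMSO libraries. *NPY* and *DSC2* were listed at 0 in all 6 KO libraries, and intact TAS1440 libraries held 5.41 to 6.24 and 3.29 to 4.45. An exact 0 in this table can also be a failed estimate, and whether these genes mark the clone or the KO cannot be told apart.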

How the data were processed

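Expression of human SCLC libraries was measured by RNA-Seq of polyA RNA (stranded, paired). Per the methods and labels, the authors trimmed reads with Cutadapt, aligned them with STAR to hg19, quantified genes with RSEM and scaled libraries by TMM in edgeR before forming RPKM. Versions are not given in the sources used here. The authors deposited log2(RPKM + 1) values, which hold no read counts, so the depth behind a value is known only as relative size and no counting interval was given.

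Values were used as deposited. limma 3.58.1 (R 4.3.3, variance trend, 1 mean for each of 5 COR-L88 groups, 10 residual degrees of freedom) tested genes at a log2 value of 1 or more in at least 3 of 15 libraries, two-sided. The study used limma voom on counts, which these values do not allow. The fit was also run on simulated data, where it recovered 92.5% to 100% of the changes put in. Only genes well above the filter on low values were changed there, and noise was drawn separately for each gene. The simulation is therefore no check of calls on low values or of shifts shared by many genes of a library. Named genes were those the study names, up to 4 called members of each of 32 lists by fold change, the 10 largest changes in each direction and the 5 largest differences. Further members were chosen after their values were seen. Some genes of the lists are not reported here. The genes, lists and tests were chosen with earlier results of these data known. Positions are of a GRCh37 annotation. Figures used matplotlib 3.10.9. Alternatives were a pseudocount of 0.1, no filter, quantile normalization, subtracted library medians, only the compared groups, no variance trend and leaving out each library.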

Additional observations from a re-analysis of the deposited data

Results flagged for a closer look

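The responses of *STING1* KO and intact cells to TAS1440 were flagged where the test of their difference passed, 556 genes in all. The values below are KO minus intact differences of log2(RPKM + 1) fold changes, and where a group is listed at 0 they are not a fold. The difference was not tested outside this line.

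Among the genes the study names and the STING and Notch pathways, the difference was −1.04 for *STING1*, −3.68 for *CD44*, −3.79 for *HLA-B*, −1.65 for *B2M*, 2.11 for *DLL4*, 1.17 for *DLL3*, −1.74 for *HES1* and −1.02 for *MAML2*. In the other lists it was −1.501 for *STMN2*, −2.60 for *PSMB9*, −2.20 for *HLA-E*, −3.90 for *IL32*, −2.46 for *BCL3*, −1.81 for *ICAM1*, −1.66 for *ULBP2*, 1.75 for *SMAD6* and 1.74 for *MYCL*. Of the genes with the largest changes, *NEDD9* differed by 2.83, *CST1* by 3.84, *TGFBI* by −5.48, *XAF1* by −5.21, *EMILIN2* by −4.98, *GJA1* by −4.76 and *B3GNT3* by −4.63. *LRG1*, *SPOCK3* and *ARHGAP6* differed by 3.04, 3.02 and 2.99. Of the list members among these genes, *STING1*, *CD44* and *XAF1* passed the filter on low values only through the intact TAS1440 libraries. The call was kept in 4 of 18 alternatives for *STMN2* and *ULBP2*, 6 for *PSMB9* (−3.25 to −0.64) and *DLL3*, 7 for *MYCL*, 8 for *DLL4*, 9 for *B2M* and *NPAS4*, 10 for *ICAM1*, 12 for *STING1* and 14 for *MAML2* and *ARHGAP6*. In *HLA-B* and *HLA-E* 17 kept it, and in the others named all 18 did. For *STING1*, *CD44* and *XAF1* a kept call is no support, because the filter had already chosen them for high intact TAS1440 values. *GJA1*, listed at 0 in all 6 KO libraries, is to be read with the same caution. *NPAS4*, an activity-dependent transcription factor, differed by 3.42, with KO values of 0.65, 1.56 and 1.39 in DMSO and 3.61, 2.80 and 1.85 with TAS1440, and it was not called in the KO cells alone (adjusted *P* = 0.0724).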

How the results depend on the processing

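The number of genes called in the *STING1* KO comparison stayed within 1.5 times 2106 under all 12 alternatives, and leaving out 1 library gave 1933 to 2252. Of 118 named genes tested, 100 kept direction and call under all 12. *XAF1* and *GJA1*, listed at 0 in every KO library, are among the 100 but have no direction, so they were counted as kept by rule. The direction turned in 2 genes that were not called. *CD44* came to −0.020 with quantile normalization and −0.024 with subtracted library medians, and *TGFBI* ranged from −0.14 (without library 44) to 1.36 (without library 45). The difference of responses was less stable, with 335 to 911 genes over the fits that leave out 1 library (367 without intact DMSO library 11). Of its 28 named genes 14 kept their call in all 18 alternatives. Among these 14 were *CD44* and *XAF1*, which passed the filter only through the intact TAS1440 libraries, so their kept calls are no support. The part of the calls of the difference that were higher in the KO cells was 21.8%, but 33.9% with a pseudocount of 0.1 and 34.6% with subtracted library medians. Quantile normalization and subtracted medians moved the median of all genes in the intact response to −0.14 and −0.13. The cause was not tested. No paired analysis was possible because the library numbers in the titles are not shared between groups. Depth as read counts is unknown, which limits statements on genes listed at 0.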
